A study of Mus musculus with 6 samples.

Results

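The 10 genes described here, Pou2f3, Gfi1b, Spib, Ascl2, Hmx2, Hmx3, Sox9, Runx1, Etv1 and Atoh1, encode transcription factors tied to tuft or chemosensory cells. They were taken by name from the 52636 gene rows of the count table, and all 10 were among the 32496 genes that passed the filter on low counts and were tested. Bulk RNAseq was made from thymus of C57BL/6 mice at 6 weeks of age, with 3 libraries of tuft-like and 3 of non-tuft-like medullary thymic epithelial cells (mTEC), the epithelial cells of the inner thymus that display tissue antigens to developing T cells. Both populations had been sorted as UEA+ and MHCIIlo cells without CD80, Sca1 or CD63. Tuft-like mTEC were in addition CD117+ CD66a+, and non-tuft-like mTEC were CD117- CD66a-. In the paper, tuft-like mTEC were gated within CD45- EpCAM1+ cells, where CD45 marks blood cells and EpCAM1 epithelial cells. Its methods for the bulk RNAseq do not name CD45 or EpCAM1. Between 20097617 and 48369825 reads per library fell on genes. The labels do not say whether the libraries came from separate mice, so p-values measure only the spread between these libraries, which may be technical.

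Tuft cells are rare chemosensory epithelial cells of mucosal surfaces that use the taste transduction cascade, and mTEC with the same program occur in the thymus. POU2F3, a POU domain factor that binds the octamer motif, is needed for tuft cells to form and works with coactivators that include the protein encoded by Pou2af2. GFI1B is a zinc finger repressor best known from blood cell development, SPIB an ETS factor of B cells, plasmacytoid dendritic cells and microfold cells, and ASCL2 a basic helix-loop-helix factor of intestinal stem cells. HMX2 and HMX3 are homeobox factors known from inner ear development, SOX9 and RUNX1 have broad roles in progenitor cells, ETV1 is an ETS factor, and ATOH1 directs the secretory lineages of the intestine and inner ear hair cells.

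In tuft-like mTEC, Pou2f3, Gfi1b, Spib and Ascl2 rose, with mean ratios of 3.78 for Spib, 4.44 for Pou2f3, 4.46 for Ascl2 and 10.9 for Gfi1b, and none of the 10 fell. These were 4 of 10 factors called higher by edgeR's quasi-likelihood test at a Benjamini-Hochberg adjusted p (FDR) under 0.05, against 1.16% of all tested genes called higher, 0.951% called lower and 2.11% called in either direction. DESeq2 called 8 of the 10 higher, against 974 of the 32496 tested genes, and limma voom 6, against 1.42%. The levels of 9 factors did not overlap between the populations, each time with the tuft-like libraries higher, against 7.18% of all tested genes. The median log2 fold change (tuft-like over non-tuft-like) was 2.03 over the 10 factors and 0.02 over all tested genes. In these bulk samples, fewer cells of a type and less RNA per cell cannot be told apart. An exact two-sided permutation test of any 1 gene has 0.10 as its smallest p at this number of libraries.

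**Figure D1:**
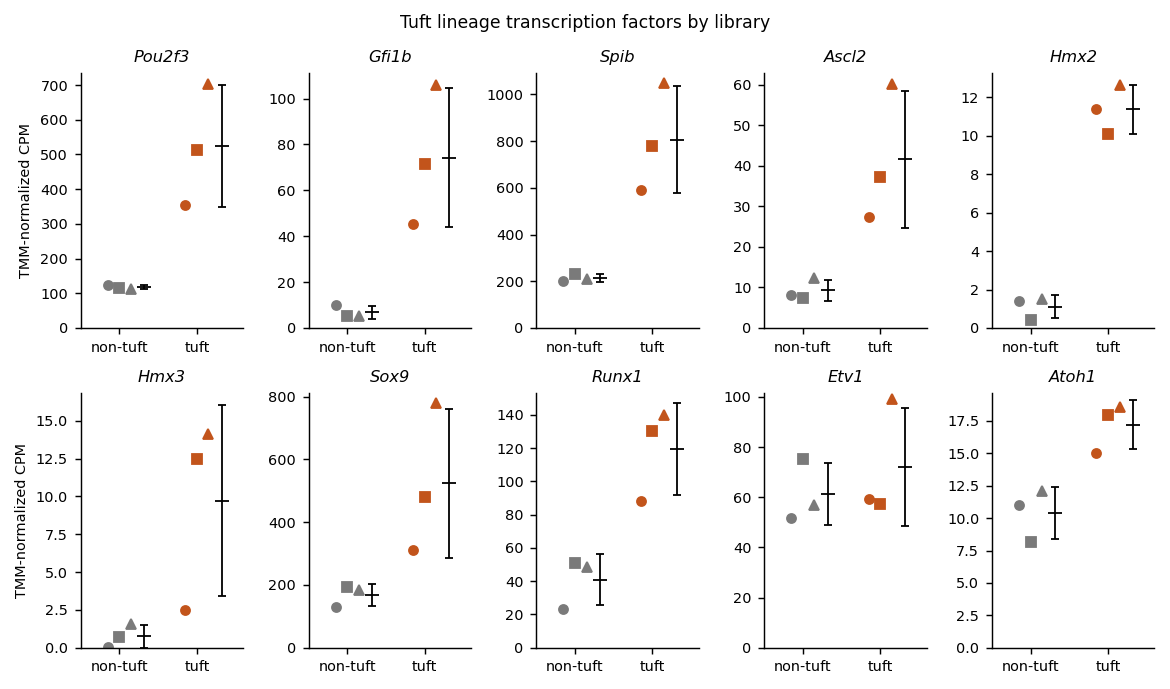
TMM-normalised level (CPM, y axis, linear from 0) of each factor in every library, with the mean and SD of the 3 libraries beside them; circles, squares and triangles are replicates 1, 2 and 3. Etv1 is the factor whose populations overlap, and tuft-like replicate 3 is the highest tuft-like library for all 10.

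Levels are given as CPM after TMM scaling. Each count was divided by the library's total of reads on genes multiplied by that library's TMM factor. The scaled totals therefore differ between libraries. Pou2f3 (ENSMUSG00000032015, mm10 chromosome 9, 43123939 to 43210369, minus strand) had 125.1, 116.4 and 112.2 CPM in the non-tuft-like libraries (replicates 1, 2 and 3, in this order throughout). In the tuft-like libraries it had 354.6, 512.0 and 704.4 CPM. The non-tuft-like libraries lay close together, the tuft-like libraries were spread more widely, and the populations did not overlap. The log2 fold change was 2.15 (approximate standard error 0.33, 95% interval 1.42 to 2.88, FDR 0.00707 by edgeR's quasi-likelihood test). The call was lost without non-tuft-like replicate 2 (edgeR FDR 0.0653).

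Gfi1b (ENSMUSG00000026815, chromosome 2, 28609450 to 28621982, minus strand) had 10.003, 5.09 and 5.42 CPM in the non-tuft-like libraries. In tuft-like replicates 1, 2 and 3 it had 45.3, 71.7 and 106.0 CPM. The populations did not overlap, with non-tuft-like replicate 1 the highest of its group, and the group mean rose from 6.84 ± 2.75 to 74.3 ± 30.4 CPM (SD, n = 3 libraries each). The log2 fold change of 3.44 (standard error 0.45, 95% interval 2.45 to 4.44) gave an FDR of 0.00284 in edgeR's quasi-likelihood test. Gfi1b was called under all 14 alternative settings tried, with a log2 fold change between 3.06 and 3.80 when 1 library was left out.

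Spib (ENSMUSG00000008193, chromosome 7, 44525993 to 44532071, minus strand) was the factor with the highest levels, at 199.2, 230.3 and 211.1 CPM in non-tuft-like and 589.4, 780.9 and 1048 CPM in tuft-like mTEC. The populations did not overlap, and the non-tuft-like mean was 26.5% of the tuft-like mean. The log2 fold change was 1.92 (95% interval 1.19 to 2.64, edgeR FDR 0.0128). That call was lost without non-tuft-like replicate 1 (edgeR FDR 0.0955) or 2 (0.112), without tuft-like replicate 2 (0.0663), and with the replicate number as a block (0.0793). Spib is also expressed by other cells that a thymic sort could hold as carry-over past its gates. The 8 marker genes of B cells and plasmacytoid dendritic cells summed to between 85.2 and 105.3 CPM in the non-tuft-like and between 210.9 and 277.0 CPM in the tuft-like libraries. Only Cd79b, a B cell receptor subunit, was called among them (log2 fold change 3.20, edgeR FDR 0.00317). The libraries of 2 of the 8 did not overlap, both with higher tuft-like levels, against 7.18% of all tested genes. DESeq2 and limma voom each called 2, against 1904 and 905 of the 32496 tested genes in either direction. The list's median log2 fold change was 0.03. Cd79a (B cells) and Siglech (plasmacytoid dendritic cells) had 0 counts in tuft-like replicate 3, where Spib was highest and the list summed to 277.0 CPM. That library had counts on 24233 genes, the fewest of the 6 libraries, so a count of 0 says little there. The part of such cells in the level of Spib was not tested.

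Ascl2 (ENSMUSG00000009248, chromosome 7, 142966829 to 142969264, minus strand) had 8.18, 7.49 and 12.3 CPM in the non-tuft-like libraries and 27.4, 37.2 and 60.1 CPM in the tuft-like libraries. The populations did not overlap, and the highest value of each was in replicate 3. The log2 fold change was 2.16 (95% interval 1.19 to 3.13, edgeR FDR 0.0313). The call was lost without non-tuft-like replicate 1 (edgeR FDR 0.101) or 2 (0.157), and without tuft-like replicate 2 (0.0964) or 3 (0.0632). Ascl2 works with Wnt signals at the base of intestinal crypts, and of 12 crypt and Wnt target genes none was called in either direction. In that list 3 genes had an unadjusted p under 0.05, and DESeq2 called 2 of the 12. Of the 12, 6 had a higher tuft-like mean, and the median log2 fold change was 0.05. The largest value was that of Nkd1, a Wnt target, at 1.504 (overlapping, edgeR FDR 1), and Ephb3, a crypt ephrin receptor, was the only gene without overlap that was higher, at 1.06 (edgeR FDR 0.395). Olfm4 stood at -1.35 (edgeR FDR 0.0704), Smoc2 at -1.46 (edgeR FDR 0.0823) and the stem cell receptor Lgr5 at 0.29 (edgeR FDR 1).

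The 250 bases upstream of the annotated start are printed for Gfi1b, Spib and Ascl2, the called factors with a promoter entry. These sequences are from RefSeq on GRCm38.p6, 5′ to 3′ on the gene's strand. They lie at chr2:28621983-28622232, chr7:44532072-44532321 and chr7:142969265-142969514, all on the minus strand. Capitals mark TGCAAAT, the octamer ATGCAAAT bound by POU2F proteins without its first base, a shortened word that was chosen after the sequences were seen.
Gfi1b: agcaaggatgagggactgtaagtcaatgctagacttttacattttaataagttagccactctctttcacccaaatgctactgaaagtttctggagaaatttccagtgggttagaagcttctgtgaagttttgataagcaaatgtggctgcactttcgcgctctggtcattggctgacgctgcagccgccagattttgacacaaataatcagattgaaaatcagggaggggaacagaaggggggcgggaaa
Spib: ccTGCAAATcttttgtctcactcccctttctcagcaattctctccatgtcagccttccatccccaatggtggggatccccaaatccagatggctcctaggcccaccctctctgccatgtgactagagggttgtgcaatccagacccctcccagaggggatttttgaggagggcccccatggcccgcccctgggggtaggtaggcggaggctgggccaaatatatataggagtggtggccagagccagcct
Ascl2: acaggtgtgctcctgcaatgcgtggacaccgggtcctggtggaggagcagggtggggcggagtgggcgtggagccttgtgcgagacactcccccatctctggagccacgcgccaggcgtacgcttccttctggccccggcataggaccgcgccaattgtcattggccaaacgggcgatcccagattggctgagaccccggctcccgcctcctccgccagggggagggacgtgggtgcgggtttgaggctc
The shortened word occurs in Spib alone among the 11 promoter entries of 8 factors, at bases -248 to -242, and in 3.56% of all 32851 promoters of this length, searched on both strands. The full octamer occurs in 0 of the 11 entries, in 2 of the 19 entries found for the effectors (Hpgds and Sucnr1), and in 1.601% of all promoters. TGTGGT, the core word of RUNX proteins, occurs in the Etv1 entry and in 14.0% of all promoters. The words AAATCAC (GFI1, in 2.75% of all promoters), GGAAGT (ETS, 19.7%), CAGCTG (E-box, 13.0%), CAAGTG (HMX, 11.6%) and ACAATG (SOX, 10.7%) occur in 0 of the 11 entries. TGCAAAT lies within the octamer, so both words share their matches there. These matches describe letters in a window and say nothing on whether a factor binds there. Pou2f3 and Sox9 had no entry.

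**Figure D2:**
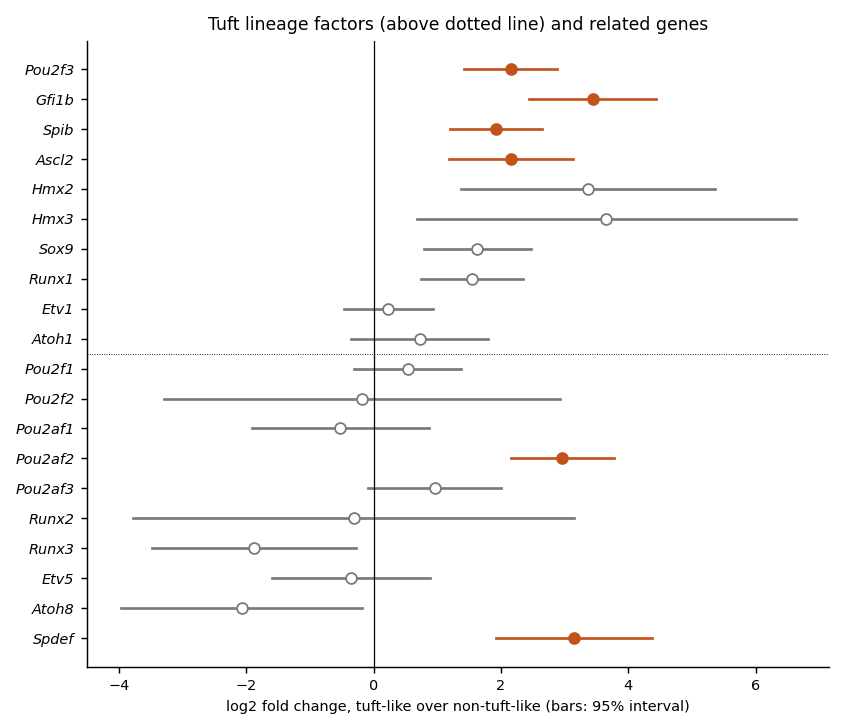
Log2 fold change, tuft-like over non-tuft-like (x axis), of the 10 factors above the dotted line and of relatives, coactivators and Spdef under it, with approximate 95% intervals as bars; filled points were called by edgeR's quasi-likelihood test and open points were not. The 4 called factors lie between 1.92 and 3.44, the intervals of Etv1 and Atoh1 include 0, and under the line Pou2af2 and Spdef were called.

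The homeobox genes Hmx2 and Hmx3 are neighbours on the plus strand of chromosome 7, with 3847 bases between them. Hmx2 (ENSMUSG00000050100, 131548773 to 131558014) had 44, 19 and 48 counts in the non-tuft-like and 276, 347 and 459 counts in the tuft-like libraries, which is 1.10 ± 0.61 and 11.4 ± 1.26 CPM (SD, n = 3 each). Hmx3 (ENSMUSG00000040148, 131542867 to 131544925) had 1, 34 and 49 counts in the non-tuft-like and 60, 429 and 514 counts in the tuft-like libraries, or 0.769 ± 0.762 and 9.71 ± 6.32 CPM. The populations did not overlap for either gene, but tuft-like replicate 1 held far less Hmx3 than the other two. Their log2 fold changes were 3.37 (95% interval 1.37 to 5.36, edgeR FDR 0.109) for Hmx2 and 3.65 (0.68 to 6.63, edgeR FDR 0.335) for Hmx3, and neither was called. DESeq2 called both, at adjusted p-values of 0.000239 for Hmx2 and 0.016 for Hmx3, and was the only alternative that did.

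The 1092 olfactory receptor genes served as a low reference level. Whether their reads come from transcripts, which mTEC can make from tissue-restricted genes, was not tested. Their 99th percentile lay between 1.26 and 2.77 CPM per exonic kilobase over the 6 libraries. The 8 factors other than the Hmx genes exceeded it in all 6 libraries. Hmx2 exceeded it in the 3 tuft-like and in 0 non-tuft-like libraries, and Hmx3 in tuft-like replicates 2 and 3 and in 0 non-tuft-like libraries. In non-tuft-like mTEC, Hmx2 and Hmx3 were thus no higher than the upper olfactory receptor genes.

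Sox9 and Runx1 lay just outside the threshold. Sox9 (ENSMUSG00000000567, chromosome 11, 112782224 to 112787760, plus strand) had 129.5, 194.6 and 183.3 CPM in the non-tuft-like and 311.4, 479.7 and 779.1 CPM in the tuft-like libraries, a log2 fold change of 1.63 (95% interval 0.79 to 2.47, edgeR FDR 0.0627). Runx1 (ENSMUSG00000022952, chromosome 16, 92601466 to 92826149, minus strand) had 23.2, 51.1 and 48.4 CPM against 88.0, 130.1 and 139.9 CPM, a log2 fold change of 1.54 (95% interval 0.75 to 2.34, edgeR FDR 0.0618). The populations did not overlap for either gene. Each was called under 7 of 14 alternatives, among them DESeq2, limma voom and the omission of tuft-like replicate 1 (edgeR FDR 0.0146 for Sox9 and 0.0405 for Runx1). Of the 12025 exonic bases of Runx1, 106 overlap the antisense gene Gm26626, whose reads cannot be told apart without strand.

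Etv1 and Atoh1 showed the smallest differences of the 10. Etv1 (ENSMUSG00000004151, chromosome 12, 38779380 to 38870484, plus strand) had 51.9, 75.4 and 57.1 CPM in the non-tuft-like and 59.2, 57.5 and 99.03 CPM in the tuft-like libraries. The populations overlapped, with tuft-like replicate 3 alone above every non-tuft-like library, and the log2 fold change was 0.23 (95% interval -0.47 to 0.93, edgeR FDR 1) and turned to -0.11 without that library. Atoh1 (ENSMUSG00000073043, chromosome 6, 64729125 to 64731245, plus strand) had 11.01, 8.19 and 12.1 CPM against 15.04, 18.0 and 18.6 CPM. These levels did not overlap, but the log2 fold change of 0.72 (95% interval -0.36 to 1.80, edgeR FDR 0.997) was not called under any of the 14 alternatives, nor was that of Etv1. The upper end of the interval of Etv1 lies below the intervals of the 4 called factors. The interval of Atoh1 overlaps those of Pou2f3, Spib and Ascl2, and no difference between genes was tested.

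**Figure D3:**
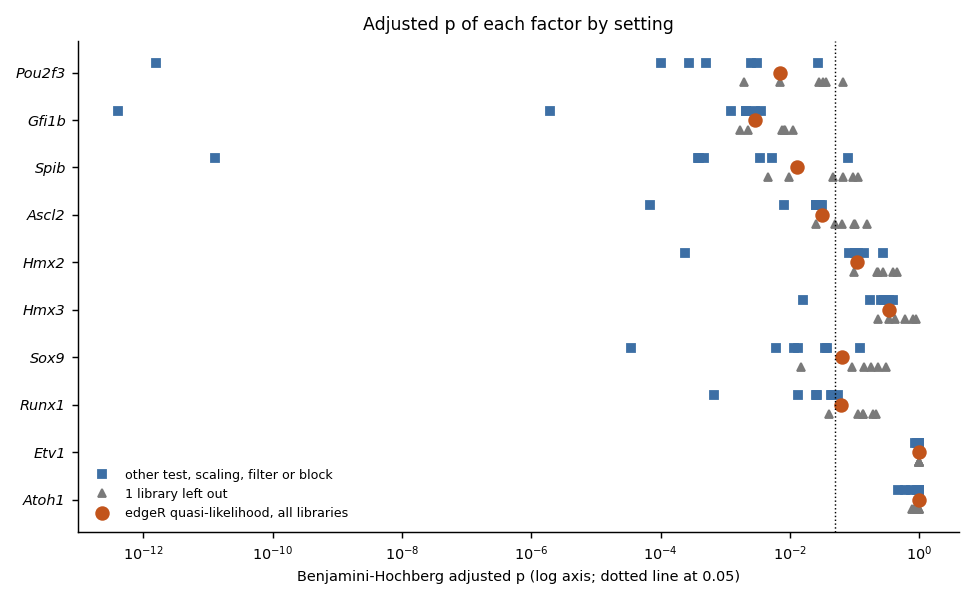
Benjamini-Hochberg adjusted p of each factor on a log x axis under edgeR's quasi-likelihood test of all libraries (circles), under other tests, scalings, filters or the block (squares) and with 1 library left out (triangles); the dotted line marks 0.05. All points of Gfi1b lie left of the line and all points of Etv1 and Atoh1 right of it.

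Levels of different genes were compared per exonic kilobase. The length was the union of all annotated exons of a gene, whether or not these cells use them. In non-tuft-like mTEC, Spib came first at a mean of 74.4 CPM per kilobase, followed by Sox9 (40.9) and Pou2f3 (38.2), whose libraries overlapped. Ascl2 (5.74), Atoh1 (4.92), Etv1 (4.62), Gfi1b (3.74) and Runx1 (3.40) followed, each overlapping its neighbour, and Hmx3 (0.527) and Hmx2 (0.343) came last. In tuft-like mTEC the first positions went to Spib (281), Pou2f3 (170) and Sox9 (127), which overlapped in turn, and then to Gfi1b (40.6) and Ascl2 (25.6), which also overlapped. Below them Runx1 (9.93), Atoh1 (8.11), Hmx3 (6.66) and Etv1 (5.41) overlapped in turn, and Hmx2 (3.54) did not overlap Etv1. By its mean, Gfi1b thus stood in position 7 of the non-tuft-like and in position 4 of the tuft-like order. It overlapped a neighbour in both orders, so neither position is resolved.

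Scaling each factor to Pou2f3 within a library removes the choice of normalisation, and no test was made of these ratios. Gfi1b had 7.998, 4.38 and 4.83 reads per 100 Pou2f3 reads in non-tuft-like and 12.8, 14.0 and 15.04 in tuft-like replicates 1, 2 and 3. The ranges did not overlap, so Gfi1b was higher relative to Pou2f3 in each tuft-like library. For Spib the ratios were 159.2, 197.9 and 188.1 against 166.2, 152.5 and 148.8, and for Ascl2 they were 6.54, 6.44 and 10.96 against 7.72, 7.27 and 8.54. Both ranges overlapped, as did those of Sox9, Runx1 and Hmx3. Hmx2 had 1.11, 0.347 and 1.36 against 3.21, 1.98 and 1.79, without overlap and with the tuft-like libraries higher. Etv1 stood at 41.5, 64.8 and 50.9 reads per 100 Pou2f3 reads in non-tuft-like and at 16.7, 11.2 and 14.1 in tuft-like mTEC, and Atoh1 at 8.80, 7.04 and 10.8 against 4.24, 3.51 and 2.64. These last ranges did not overlap, with the tuft-like libraries lower. Since Pou2f3, the divisor, rose, these lower ratios are no decrease of Etv1 or Atoh1, whose own levels are given above.

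**Figure D4:**
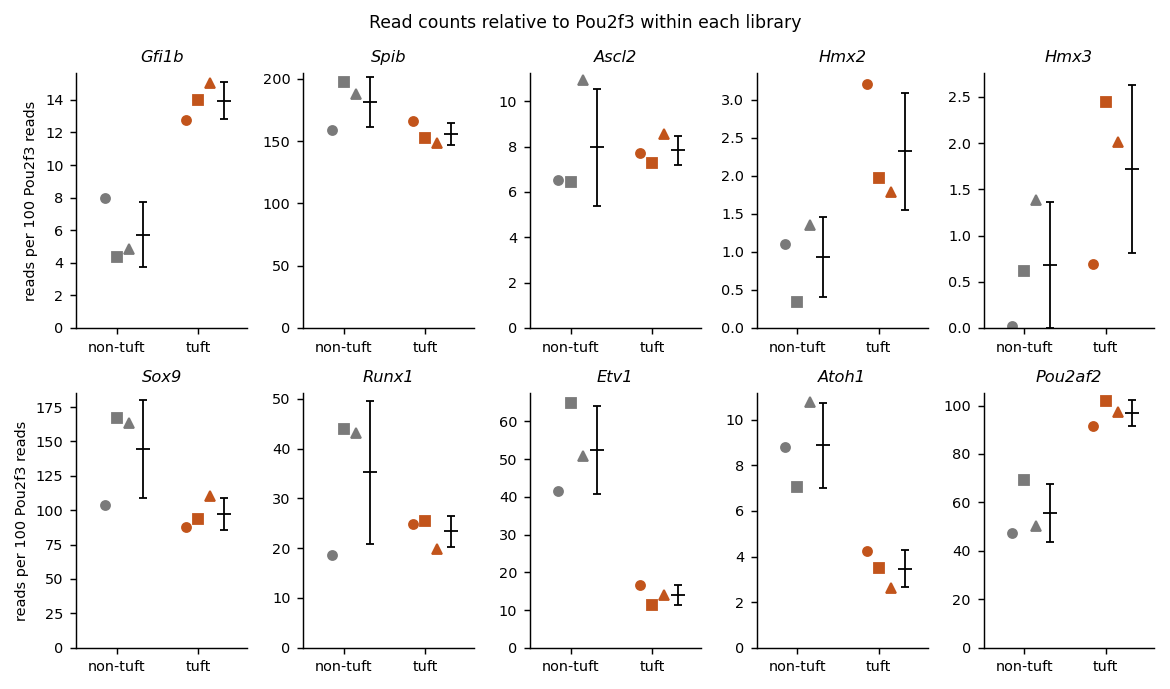
Reads of each gene per 100 Pou2f3 reads in the same library (y axis, linear from 0), with mean and SD of 3 libraries; circles, squares and triangles are replicates 1, 2 and 3. Gfi1b, Hmx2 and Pou2af2 are higher, and Etv1 and Atoh1 lower, in every tuft-like than in every non-tuft-like library.

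Pou2af2 (listed as 1810046K07Rik, ENSMUSG00000036027, chromosome 9, 51289686 to 51328917) was the only cofactor called among 14 genes for partners of POU2F, GFI1 and RUNX proteins. It had 59.0, 80.7 and 56.6 CPM in the non-tuft-like and 324.2, 522.4 and 685.1 CPM in the tuft-like libraries, a log2 fold change of 2.96 (95% interval 2.16 to 3.77, edgeR FDR 0.00193), and it was called under all 14 alternatives. Relative to Pou2f3, it went from 47.2, 69.3 and 50.4 reads per 100 Pou2f3 reads in non-tuft-like to 91.4, 102.0 and 97.3 in tuft-like mTEC. The related coactivator genes Pou2af3 (listed as Colca2) and Pou2af1, a B cell coactivator, stood at log2 fold changes of 0.96 (95% interval -0.09 to 2.01, edgeR FDR 0.661) and -0.52 (edgeR FDR 1). The corepressor genes Kdm1a (0.26) and Hdac1 (0.28) and the RUNX partner Cbfb (0.78) were not called either, and the median of the 14 was 0.16.

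Close relatives of the factors did not pass the test in either direction. Of 18 such genes 13 were tested, none was called (3 had an unadjusted p under 0.05, and DESeq2 called 1), and their median log2 fold change was -0.31. Atoh8, a relative of Atoh1, stood at -2.07 (edgeR FDR 0.455). Gfi1, the paralog of Gfi1b, had 51, 4 and 1 counts in the non-tuft-like and 3, 0 and 14 in the tuft-like libraries and did not pass the filter. Pou2f1, the widely expressed octamer factor, stood at 0.53 (95% interval -0.31 to 1.38). Runx3 had 22.1, 37.5 and 33.6 CPM in non-tuft-like and 11.5, 12.5 and 1.29 CPM in tuft-like mTEC, so its libraries lay in the opposite order to those of Runx1, at a log2 fold change of -1.88 (edgeR FDR 0.377).

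All 22 tuft cell effector genes were called higher, against 1.16% of all tested genes, with a median log2 fold change of 4.27. They encode the taste cascade, lipid mediator enzymes and cytoskeletal proteins of tuft cells. Effectors and factors were chosen with earlier results of these data known, so their counts and contrast describe these lists only. In non-tuft-like mTEC the effectors had a median of 5.17% of their tuft-like mean (range 0.924% to 21.9%), against a median of 24.5% for the 10 factors (range 7.92% to 85.5%). Dclk1, a kinase used as a tuft cell marker, had 19.8, 20.4 and 32.8 reads per 100 Pou2f3 reads in non-tuft-like and 357.1, 320.1 and 260.4 in tuft-like mTEC. Trpm5, the cation channel of the cascade, had 95.7, 101.4 and 67.3 against 470.0, 431.8 and 331.2. For both effectors, every tuft-like library held more reads relative to Pou2f3 than every non-tuft-like one.

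**Figure D5:**
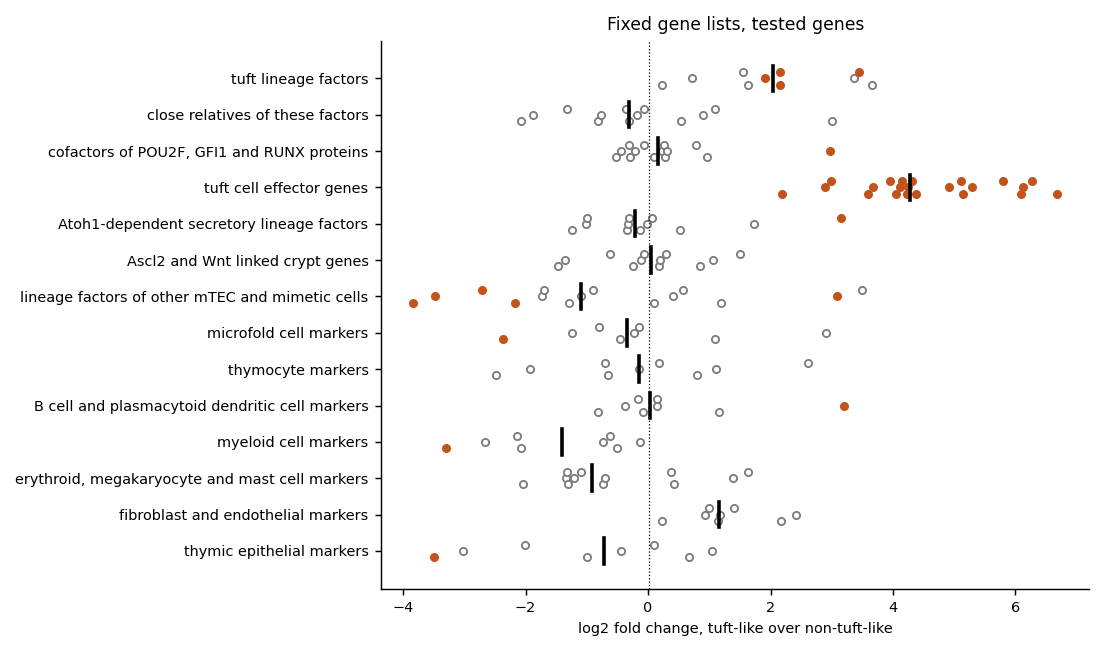
Log2 fold change, tuft-like over non-tuft-like, of each tested gene (x axis) in the 10 factors and in the fixed gene lists (y axis); filled points were called, open points were not, and black bars are medians. The 22 effector genes have a median of 4.27, the 10 factors 2.03 and the lineage factors of other mTEC -1.10.

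Of 12 factors of the secretory lineages that depend on Atoh1 in the intestine, Spdef, which promotes goblet cell maturation, was the only one called. Over all tested genes, edgeR called 2.11% in either direction, 1.16% higher and 0.951% lower. It had 3.18, 2.06 and 3.39 CPM in non-tuft-like and 23.3, 19.1 and 34.0 CPM in tuft-like mTEC, a log2 fold change of 3.15 (95% interval 1.92 to 4.37, edgeR FDR 0.0148), and was no longer called without non-tuft-like replicate 2 (edgeR FDR 0.0817). The list had a median of -0.22, with the Notch ligand gene Dll1 at -1.01 (edgeR FDR 0.486) and the endocrine factor Insm1 at -1.24 (edgeR FDR 0.674). Among 15 tested lineage factors of other mTEC, 4 were called lower, namely Aire (-3.83), Foxn1 (-3.48), Fezf2 (-2.72) and Grhl1 (-2.18), which act in medullary antigen expression, thymic epithelial identity or keratinocyte differentiation. The ionocyte factor Foxi1 (3.08) was the only one of that list called higher. Of the 15, 9 had an unadjusted p under 0.05 in edgeR's test. The libraries of 10 did not overlap, 3 of these with higher tuft-like levels, against 16.0% of all tested genes without overlap.

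The 5 genes whose pattern over the 6 libraries was most like that of Pou2f3, by the root mean square difference of centred log2 CPM among 11504 genes whose mean reached 10 CPM, were Sntb1 (0.101), Itpr2 (0.107), Rbm15b (0.109), Gna14 (0.117) and Pnpla3 (0.120). Itpr2 encodes an inositol trisphosphate receptor and Gna14 a G protein alpha subunit. Spib came at rank 9 in this order (0.152), Ascl2 at rank 63, Sox9 at rank 162 and Runx1 at rank 337. Gfi1b, Atoh1 and Etv1 came at ranks 1023, 1061 and 3351, and the Hmx genes were below the level required. The measure also grows where the size of the change differs from that of Pou2f3 (log2 fold change 2.15). Gfi1b rose more than Pou2f3 (3.44) and Atoh1 less (0.72).

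The tuft-like libraries differed among themselves in a shared order. Replicate 3 was the highest of the 3 for 10 of 10 factors and for 21 of 22 effectors, and replicate 1 the lowest for 8 of 10 factors and 21 of 22 effectors. The share of reads that HTSeq placed in no annotated feature ran the other way, at 61.6%, 47.6% and 19.7% in tuft-like replicates 1, 2 and 3, against 34.4%, 36.6% and 52.5% in the non-tuft-like libraries. The summed level of 8 thymic epithelial markers was 5352, 8004 and 11808 CPM in the tuft-like replicates, against between 5821 and 6873 CPM in the non-tuft-like libraries. Of these 8 markers 5 had an unadjusted p under 0.05, their median log2 fold change was -0.71, and Krt14, a basal keratin, was called lower (-3.49). Krt18, a simple epithelial keratin, stood at 1.04 (edgeR FDR 0.417) and the adhesion gene Epcam at 0.10 (edgeR FDR 1). The 8 fibroblast and endothelial markers summed to between 49.2 and 81.3 CPM in the non-tuft-like libraries and to 317.2, 94.0 and 19.7 CPM in the tuft-like libraries. All 8 had a higher tuft-like mean, with a median log2 fold change of 1.16, but all overlapped and none was called (edgeR, 1 with an unadjusted p under 0.05; DESeq2 called 0). The TMM factors were 1.21, 1.002 and 0.791, so scaling widened the spread between tuft-like replicates 1 and 3. The part of these differences in the spread of the factors was not tested.

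Gfi1b and Runx1 also act in blood cells. The 12 erythroid, megakaryocyte and mast cell markers summed to between 251 and 392 CPM in the non-tuft-like and between 92.6 and 174.6 CPM in the tuft-like libraries. Of the 12, 4 had a higher tuft-like mean, 4 an unadjusted p under 0.05, and none was called by edgeR, against 4 by DESeq2. The libraries of 6 did not overlap, 0 of these with higher tuft-like levels, against 16.0% of all tested genes without overlap. Gata1 had 0 counts in tuft-like replicate 3, the library with counts on the fewest genes (24233). The part of blood cells in the levels of Gfi1b and Runx1 was not tested. The 10 thymocyte markers summed to between 22.3 and 38.0 CPM against between 36.3 and 55.8 CPM, and the 8 myeloid markers to between 256 and 397 CPM against between 138 and 190 CPM. No thymocyte gene was called (1 had an unadjusted p under 0.05, and DESeq2 called 1), and the 1 called myeloid gene, the macrophage marker Cd68, was lower (log2 fold change -3.30). The 8 microfold cell markers, relevant since Spib directs that lineage, summed to between 604 and 897 CPM in the non-tuft-like libraries. In the tuft-like libraries they summed to 736, 1434 and 3513 CPM, the same order as Spib. That order is not particular to Spib, since tuft-like replicate 3 was also the highest for 21 of 22 effectors. The median log2 fold change of the microfold markers was -0.34, and 1 gene was called, Tnfrsf11b, the RANKL decoy receptor, at -2.36. Most of the sum was Gp2, the uptake receptor of microfold cells, which had 410.8, 117.0 and 73.7 CPM against 523.0, 1093 and 2868 CPM without overlap, a log2 fold change of 2.90 (edgeR FDR 0.104). DESeq2 and limma voom each called 2 genes of the list. The part of microfold-like cells in the level of Spib was not tested.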

How the data were processed

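The authors deposited raw read counts per gene. Before that, per the submitters' processing notes and the study's methods, reads went through Trimmomatic 0.36, STAR 2.7.3a on mm10 and HTSeq in its intersection-nonempty mode. The kit was a SMARTer ultra-low input kit, and the annotation release and the strand setting are not given in the sources used here. The 52636 gene rows were used, of which GENCODE M21 names 99.6%. Left out were 92 ERCC rows, all at 0, and 5 HTSeq rows that name no gene, which held between 27.1% and 66.6% of a library's reads.

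Groups came from the sample labels. With R 4.3.3, low genes were removed with filterByExpr (min.count 10, min.total.count 15) and the rest were scaled by TMM and tested with edgeR 4.0.16 (quasi-likelihood F-test, no covariates, all 6 libraries, Benjamini-Hochberg over all tested genes, FDR under 0.05). The scripts were tested on simulated data. Standard errors are approximate, from the size of the log2 fold change over the root of F, and give the 95% intervals. The common biological coefficient of variation was 1.10. A limit of 3 counts, which a count of 0 allows, equals 0.0620 to 0.149 CPM before TMM scaling and covers counting error only.

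The factors and gene lists were chosen with earlier results of these data known. Named are all 10 factors, genes called in each list (up to 5 by fold change), uncalled list genes of high level, the 5 genes most like Pou2f3, and genes overlapping a factor's exons. Other list genes, such as Gfi1, Gp2, Nkd1, Ephb3, Krt18, Epcam, Lgr5, Olfm4, Smoc2, Runx3, Dll1, Insm1, Pou2af1 and Pou2af3, single marker genes at or near 0, and the choice of the olfactory receptor genes as a low reference, were added after values were seen. Values of some genes these rules select are not reported here. Alternatives were RLE factors, library size only, DESeq2 1.42.0, limma 3.58.1 voom, 2 other filters, a replicate block, omission of each of the 6 libraries and an FDR of 0.01. Promoter sequences are RefSeq's on GRCm38.p6, with an entry for 8 of the 10 factors.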

Additional observations from a re-analysis of the deposited data

Results flagged for a closer look

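In tuft-like replicate 1, HTSeq placed 61.6% of reads in no annotated feature, the highest share of the 6 libraries, and these reads enter none of the comparisons above. The share was 19.7% in tuft-like replicate 3. Replicate 1 had the lowest tuft-like level for 8 of the 10 factors, and the part of these reads in that order was not tested.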

How the results depend on the processing

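The count of 4 factors called became 8 with DESeq2 and 2 at an FDR of 0.01. It was 6 with RLE factors, library size only, limma voom or no filter on low counts, and 5 with a mean of at least 1 CPM. Leaving out 1 library gave between 1 and 6 factors, with 1 factor, Gfi1b, without non-tuft-like replicate 2, 2 factors without non-tuft-like replicate 1 or tuft-like replicate 2, and 6 without tuft-like replicate 1. Over all tested genes, 687 calls became 1904 with DESeq2, 1043 with library size only, 1127 with no filter on low counts and 319 at an FDR of 0.01, and between 376 and 922 when 1 library was left out. The causes were not tested. The log2 fold change of Etv1, which was never called, was between -0.11 (without tuft-like replicate 3) and 0.40 when 1 library was left out, and the other 9 factors kept their direction under all 14 alternatives.

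Samples with the same replicate number showed little shared deviation (Pearson correlations of 0.118, 0.0104 and -0.0357 over 11585 genes). Whether same-numbered libraries share a mouse or a sort is not in the labels. These correlations cannot settle it, since the libraries also differed in the share of reads placed in no feature. With the replicate number as a block, 4 factors and 737 genes were called. Runx1 (edgeR FDR 0.0261) gained and Spib (edgeR FDR 0.0793) lost a call there. What depth limits was not tested beyond the limit of 3 counts.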
